A study of Equus caballus with 13 samples.

Results

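The AP-1 and early-response transcription factors described here are the FOS family (FOS, FOSB, FOSL1, FOSL2), the JUN family (JUN, JUNB, JUND), ATF3, EGR1 and MYC. They were chosen by gene symbol in the authors' 2 tables of RNA kinetics. Of these 10 genes, 9 had a row in both tables, which hold 11056 and 11249 genes, and JUND was not analysed here.

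AP-1 is a dimeric transcription factor. FOS proteins pair with JUN proteins through a leucine zipper, JUN proteins can also pair with each other, and ATF3 belongs to the same basic leucine zipper class. Many of these genes, with the zinc finger factor EGR1 and the growth regulator MYC, are switched on within minutes of a stimulus, and their mRNAs are known for rapid decay, often through AU-rich elements. In cartilage, AP-1 is best known as an activator of matrix-degrading enzymes.

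The samples were wild-type horse chondrocytes, the cells that make and maintain cartilage, grown for 2 days after isolation and then given 4-thiouridine (4sU) for 4 h, per the labels. 4sU is a uridine analogue built into newly made RNA, and alkylation lets new and old RNA be told apart in sequencing. There were 5 old female, 5 young female and 3 young male samples. Ages in years, and whether a sample came from a single animal, were not given in the sources used here. The age table sets old against young female cells and the sex table sets young male against young female cells, with the same 5 young female samples in both.

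Each table gives 1 synthesis rate (in arbitrary units) and 1 half-life (read as hours) per gene and group, as the authors' group value. Depth and the spread between samples are therefore unknown, no value below carries an SD, and no difference was tested. The 13 samples carry 12 batch labels, and within each group every sample has its own label. Apart from batch 10, shared by a young female and a young male sample, each label belongs to 1 sample, so that batch cannot be told apart from sample. With group values alone, the part of batch in a difference between groups cannot be assessed. All 10 chondrocyte markers examined were listed, with summed implied levels (the product of synthesis rate and half-life, over ln 2) of 1710000 in old female against 1870000 in young female cells of the age table, and in the sex table of 4490000 in young male against 1780000 in young female cells. By age 6 of the 10 were lower in old cells (median log2 ratio of the level −0.31), among them HAPLN1 (−1.01) and COL2A1 (−0.63), while COMP was higher (0.83). Of the leukocyte and endothelial markers, 1 of 5 (CD14) and 1 of 4 (VWF) were listed, while PTPRC, CD68, PECAM1 and CDH5 were not. By age the implied level of CD14 was 4260 in old against 3550 in young female cells, and that of VWF 1340 against 1120. These young female levels exceeded those of 71.9% (CD14) and 38.9% (VWF) of genes. Both level ratios were 0.26 by age, and by sex they were 0.15 for CD14 and 0.04 for VWF. Whether leukocytes or endothelial cells were present was not tested.

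Most of these mRNAs were short-lived in every group. In young female cells JUNB had the shortest half-life, 0.638 h in the age table and 0.619 h in the sex table, and MYC followed with 0.680 and 0.681 h. FOSL2 (0.943 and 0.940 h) and EGR1 (1.06 h in both) lay on either side of 1 h. JUN (1.29 and 1.30 h), FOS (1.35 h in both) and FOSL1 (1.53 h in both) formed a middle group. ATF3 (2.44 and 2.5 h) and above all FOSB (4.16 and 3.96 h) were longer. The median half-life of all genes was 3.64 h in the age table and 3.74 h in the sex table, and 8 of the 9 members were below it, with FOSB above.

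**Figure D1:**
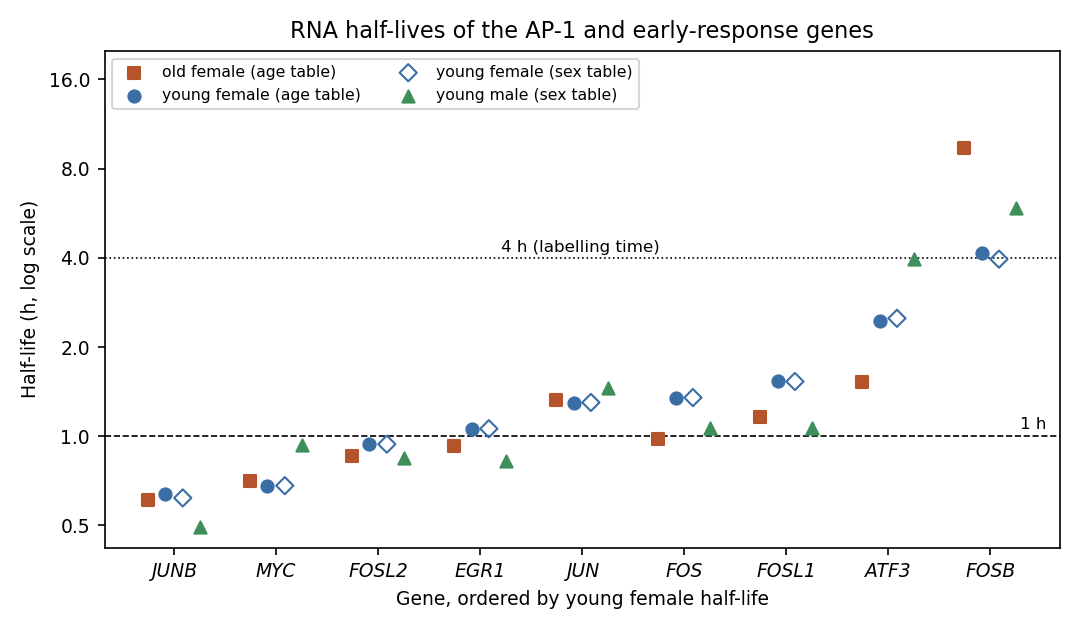
Half-life in hours (log scale) of the 9 listed genes in the 4 columns of the authors' tables, 1 group value per point, with dashed and dotted lines at 1 h and at the 4 h of labelling. JUNB, MYC and FOSL2 lie below 1 h in all columns, EGR1 and FOS cross the line, and FOSB lies at or near 4 h or above it.

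The order of the 9 half-lives was the same in both estimates of the young female cells. Neighbours in that order were often close. In the age table FOS was 4.64% longer than JUN, MYC was 6.66% longer than JUNB, EGR1 was 12.2% longer than FOSL2 and FOSL1 was 13.5% longer than FOS. These 4 gaps, up to 0.18 on the log2 scale, were smaller than the 0.22 log2 units that bounded 95% of the differences between the 2 young female estimates over the 3003 genes with half-lives of 0.5 to 2 h. The gaps from MYC to FOSL2 (38.7%) and from EGR1 to JUN (22.0%) were larger than that. ATF3 was 59.5% longer than FOSL1 and FOSB 70.4% longer than ATF3, but ATF3 and FOSB lie above the 2 h to which this bound applies. Because the estimates come from the same libraries, this yardstick holds none of the variation between animals.

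Half-lives under 1 h were listed for 3 of the 9 members in young female cells by either table, JUNB, MYC and FOSL2. Among all genes the share was 5.95% in the age table and 4.95% in the sex table. In old female cells EGR1 (0.924 h) and FOS (0.981 h) joined them, which made 5 of 9 against 8.29% of all genes. In young male cells 4 of 9 were under 1 h, JUNB, EGR1 (0.823 h), FOSL2 and MYC (0.934 h), against 5.82% of all genes. The closest values above the limit were 1.06 h for EGR1 in young female cells, 1.07 h for FOS and FOSL1 in young male cells and 1.16 h for FOSL1 in old female cells. Over all 4 columns, 3 members were always under 1 h, 2 were under it in some columns and 4 (JUN, FOSL1, ATF3 and FOSB) in no column.

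A labelling time of 4 h leaves little old RNA for the shortest of these. By exponential decay at a steady level, 93.8% of an mRNA with a half-life of 1 h would be new after 4 h, and 99.6% of one with a half-life of 0.5 h. The listed half-lives of JUNB correspond to new shares of 98.7% in young female (age table), 98.9% in old female and 99.6% in young male cells, so that its lowest value, 0.492 h, and its highest, 0.638 h, differ by less than 1 percentage point in what is measured. MYC ranged from 94.9% new in young male to 98.3% in young female cells. FOSB was at the other end, with 25.6% new in old female and 48.6% in young female cells of the age table. Whether RNA levels were steady during labelling was not tested.

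Among the FOS family, FOS itself encodes the classical partner of JUN. Its synthesis rate was 811 in old female, 1110 in young female (age table), 1060 in young female (sex table) and 1040 in young male cells. Its half-life was shorter in both other groups, at 0.981 h in old female and 1.07 h in young male cells against 1.35 h. The log2 ratio of half-life was −0.46 by age and −0.33 by sex, and neither was past the 2-fold threshold used throughout, an absolute log2 ratio of 1. After centring on the median of all genes these ratios were −0.38 and −0.60, and within half-life deciles −0.32 in both comparisons. The implied level, a derived quantity that equals the RNA level only at a steady state, was 1.88-fold lower in old cells (log2 ratio −0.91). In male cells the level was 1.28-fold lower (−0.36, and −0.01 after centring within half-life deciles), and the synthesis ratio changed sign, from −0.03 to 0.25 after centring on the median of all genes.

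FOSB, a FOS paralogue induced with FOS in many cells, stood out by its values in old cells. Its synthesis rate was 10.4 in old female, 102 in young female cells of either table and 37.7 in young male cells. Its half-life was 9.39 h in old female and 5.88 h in young male cells, against 4.16 and 3.96 h in the young female cells of the respective tables. Synthesis was thus 9.83-fold lower (log2 ratio −3.30) and half-life 2.25-fold longer (1.17) in old cells, and the implied level was 4.36-fold lower, 140 against 612. In male cells synthesis was 2.71-fold lower (−1.44). Half-life was 1.48-fold longer (0.57, 0.30 after centring on the median of all genes and 0.18 within half-life deciles). The implied level was 1.82-fold lower (−0.87, or −1.06 after centring within half-life deciles). The levels behind these ratios were low: 2.01% of genes in the old column and 24.4% in the young female column (age table) had a lower implied level, on a scale for which no length correction is stated.

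FOSL1 (also called FRA1) encodes a FOS-family partner that lacks the transactivation domain of FOS. Its synthesis rate was 976 in old female and 1680 in young male cells, against 2240 and 2140 in young female cells. Half-life was 1.16 h in old and 1.07 h in male cells, against 1.53 h. Both parameters were therefore lower in old cells, the synthesis rate by 2.30-fold (log2 ratio −1.20) and the half-life by 1.32-fold (−0.40), and the implied level was 3.03-fold lower, 1630 against 4950. In male cells the half-life ratio was −0.51 (−0.78 after centring on the median of all genes) and the level ratio −0.86 (−0.55 within half-life deciles). The synthesis ratio of −0.35 was close to the median of all genes. It became −0.07 after centring on that median and 0.04 within half-life deciles.

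FOSL2 (FRA2) was the FOS-family member with the shortest half-life. Its half-life hardly varied as listed, with 0.858 h in old female and 0.841 h in young male cells, against 0.943 and 0.940 h in young female cells. The half-life ratio by sex was −0.16, but −0.43 after centring on the median of all genes and −0.15 within half-life deciles. The synthesis rate was 5050 in old female and 2930 in young male cells, against 3390 and 3250 in young female cells. FOSL2 was the single listed member with a higher implied level in old cells, 6250 against 4620 (1.35-fold, log2 ratio 0.44). In male cells the level ratio was −0.31, but 0.04 after centring within half-life deciles, and the synthesis ratio of −0.15 became 0.13 after centring on the median.

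In the JUN family the 2 listed genes differed. JUN encodes the central AP-1 subunit, and its synthesis rate was 980 in old female and 843 in young male cells, against 1930 and 1840 in young female cells. Its half-life was 1.33 h in old female and 1.45 h in young male cells, against 1.29 and 1.30 h in young female cells. The half-life ratios were small, 0.04 by age and 0.16 by sex. The ratio by sex was −0.11 after centring on the median of all genes and 0.09 within half-life deciles. The implied level of JUN was 1.92-fold lower in old (log2 ratio −0.94) and 1.94-fold lower in male cells (−0.96), with synthesis ratios of −0.98 and −1.12. The threshold divides these synthesis ratios by the centring: the age ratio was −1.06 and the sex ratio −0.84 after centring on the median. Within half-life deciles the level ratio by sex was −0.65.

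JUNB encodes a JUN protein with weaker transactivation in many settings. It had synthesis rates of 23800 in old female and 25700 in young male cells, against 23100 and 22700 in young female cells. Half-lives were 0.610 h in old female and 0.492 h in young male cells, against 0.638 and 0.619 h. Its implied levels, 20900 in old, 18200 in male and 21300 and 20300 in young female cells, spanned 1.17-fold. That was the smallest span of the 9 members. Its level ratios were −0.03 by age and −0.16 by sex, the latter 0.20 within half-life deciles.

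ATF3 encodes a stress-induced factor that binds as a homodimer or with JUN proteins. Its synthesis rates and half-lives in old and male cells lay on opposite sides of the young female ones. The synthesis rate was 288 in old female and 37.7 in young male cells, against 208 and 194 in young female cells. The half-life was 1.52 h in old female and 3.96 h in young male cells, against 2.44 and 2.5 h. In old cells the ratios opposed each other (synthesis 0.47, half-life −0.68) and the level ratio was −0.21. In male cells synthesis was 5.14-fold lower (−2.36, or −2.08 after centring on the median). Half-life was 1.58-fold longer (0.66, 0.39 after the same centring and 0.52 within half-life deciles). The implied level was 3.24-fold lower, 215 against 699. That level ratio of −1.70 was −1.47 within half-life deciles, and 9.04% of genes in the male column had a lower implied level on that uncorrected scale.

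EGR1, an early-response zinc finger factor, had synthesis rates of 4280 in old female and 6390 in young male cells, against 5430 and 5190 in young female cells. Its half-life of 1.06 h in young female cells was 0.924 h in old and 0.823 h in male cells. The implied level was 1.45-fold lower in old cells (log2 ratio −0.54). By sex the ratios of synthesis (0.30) and half-life (−0.36) nearly cancelled. After centring on the median of all genes these were larger, 0.58 and −0.63, and within half-life deciles 0.62 and −0.35. The level ratio was −0.06, or 0.29 within half-life deciles.

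MYC encodes a transcription factor that drives growth and metabolism as a dimer with MAX. Its synthesis rate was 2620 in old female and 1270 in young male cells, against 3100 and 2950 in young female cells. Half-life was 0.706 h in old and 0.934 h in male cells against 0.680 and 0.681 h. In old cells all 3 log2 ratios were within 0.24 of zero as listed. The synthesis ratio of −0.24 was −0.32 after centring on the median of all genes and −0.43 within half-life deciles. In male cells synthesis was 2.32-fold lower (−1.21, or −0.93 after centring on the median). Half-life was 1.37-fold longer (0.46, 0.18 after that centring and 0.47 within half-life deciles). The implied level was 1.69-fold lower (−0.76, or −0.40 within half-life deciles).

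**Figure D2:**
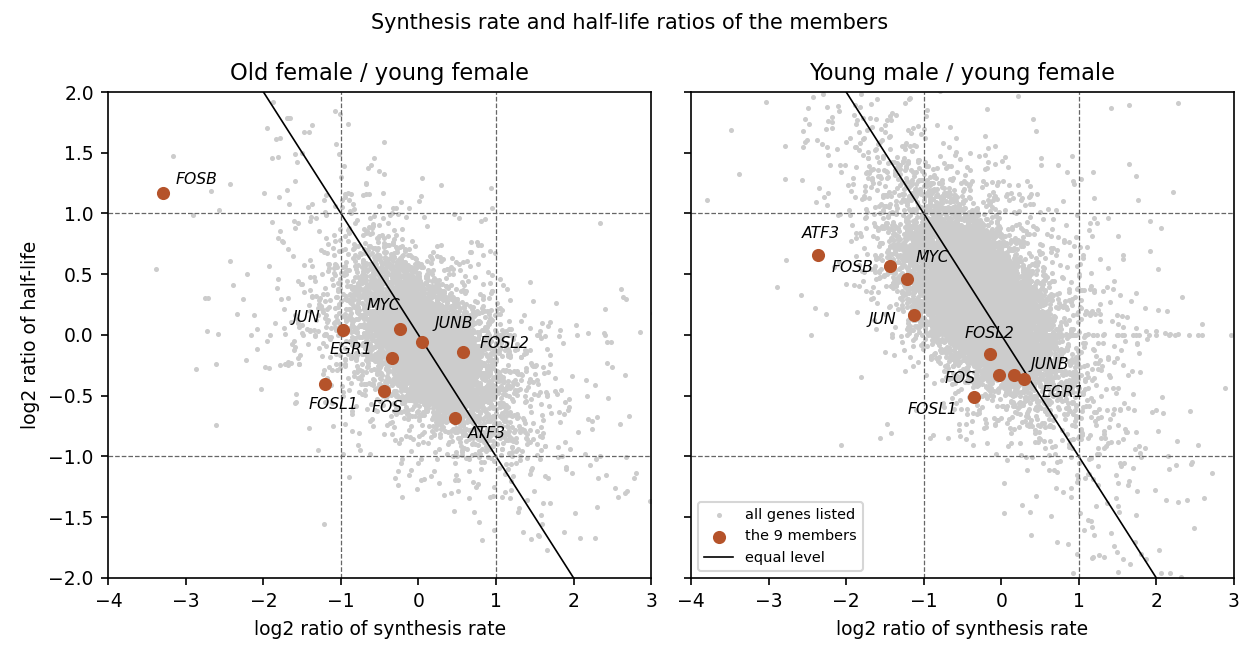
Log2 ratio of half-life (vertical) against log2 ratio of synthesis rate (horizontal) for old over young female cells (left) and young male over young female cells (right), with the 9 members labelled over all listed genes in grey; dashed lines mark a ratio of 1 in either direction and the solid line marks an equal implied level. The axes leave out 219 genes on the left and 243 on the right. FOSB at the left edge, FOSL1 and JUN lie farthest below the line of equal level by age, and ATF3 does so by sex.

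In the age comparison, 2 of the 9 members were past the 2-fold threshold in synthesis rate, FOSB and FOSL1, both lower. Among all genes 7.52% were past it in either direction and 2.92% downward. FOSB was also the single member past the threshold in half-life, longer in old cells, against 3.53% of all genes in either direction and 1.47% upward. For implied level FOSB and FOSL1 were past it downward, against 4.12% of all genes in either direction and 1.99% downward. Of the 9 level ratios 8 were below zero, with a median of −0.54, whereas 49.3% of all genes were below zero and their median was 0.00. Those 3094 genes whose young female half-life was 0.5 to 2 h, a range without ATF3 and FOSB, had a median of 0.03, with 45.6% below zero.

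In the sex comparison, 4 of the 9 members were past the threshold in synthesis rate, FOSB, JUN, ATF3 and MYC, all lower in male cells, against 12.2% of all genes in either direction and 8.37% downward. The synthesis ratios of all genes had a median of −0.28 and their half-life ratios one of 0.27, and after centring on these medians FOSB (−1.16) and ATF3 (−2.08) were still past the threshold. No member was past it in half-life, where 7.58% of all genes were. For implied level ATF3 was past it downward, against 4.61% of all genes in either direction and 1.61% downward. All 9 level ratios were below zero, with a median of −0.76, against 49.5% of all genes. Among the 3049 genes whose young female half-life was 0.5 to 2 h, a range that holds 7 of the members but neither ATF3 nor FOSB, 80.5% were below zero and the median was −0.30, and after centring within half-life deciles 6 of the 9 members remained below zero. These 6 had ratios from −1.47 for ATF3 to −0.01 for FOS, and the median over the 9 was −0.40. The age and sex ratios share the young female samples, so a low or high young female value moves both.

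**Figure D3:**
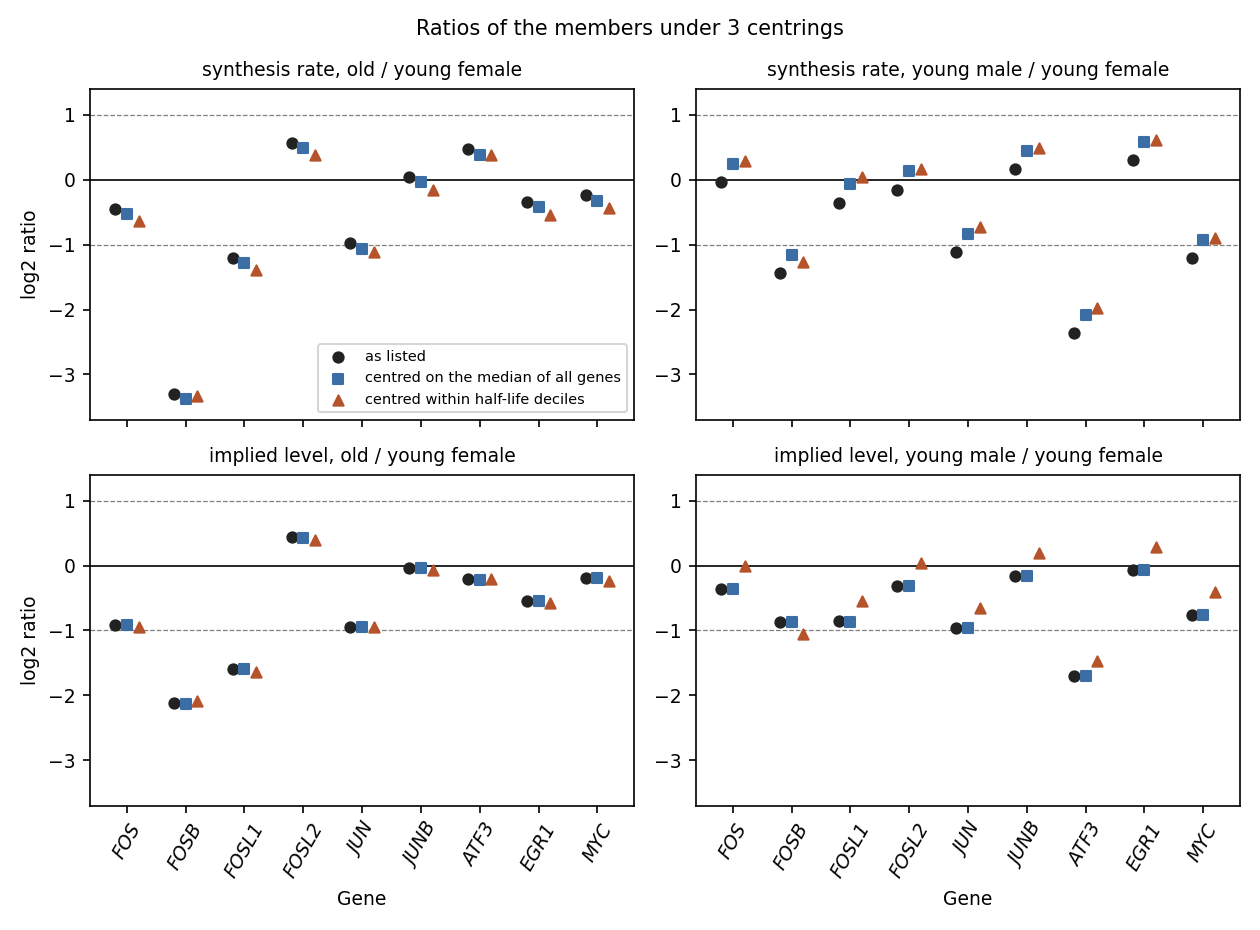
Log2 ratios of synthesis rate (upper row) and implied level (lower row) of the 9 members by age (left column) and sex (right column), as listed, centred on the median of all genes and centred within deciles of half-life; dashed lines mark the 2-fold threshold. By age FOSL1 stays past the threshold in synthesis, from −1.20 as listed to −1.39 within deciles, while by sex the synthesis ratios of FOS, FOSL1 and FOSL2 and the level ratios of FOSL2, JUNB and EGR1 change sign within deciles.

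Synthesis and half-life moved in opposite directions for 6 of the 9 members in each comparison, against 70.4% of all genes by age and 76.2% by sex. In the age comparison the exceptions were FOS, FOSL1 and EGR1, lower in both. By sex they were FOS, FOSL1 and FOSL2 as listed, but FOSL1 and JUN after centring on the median of all genes. Within half-life deciles these genes had opposite signs by sex too. Their synthesis and half-life ratios were 0.29 and −0.32 (FOS), 0.04 and −0.58 (FOSL1), 0.17 and −0.15 (FOSL2), and −0.73 and 0.09 (JUN). Between the 2 young female estimates, the members' half-lives deviated from the median difference by at most 0.07 on the log2 scale (FOSB), and their implied levels by at most 0.001. The part of estimation error in the opposite directions by age and sex was not tested.

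Other genes of the pathway were examined in 4 lists. Of 10 other basic leucine zipper partners 6 were listed in both tables, with median half-lives of 1.25 h in young female (age table), 1.26 h in old female and 1.26 h in young male cells. BATF2, a factor that pairs with JUN proteins, was lower in synthesis in old (−1.07) and male cells (−1.18, or −0.90 after centring), and its implied level was past the threshold by sex (−1.37). The levels behind this ratio were low, 118 in male against 305 in young female cells, where 13.8% of genes had a lower level. The other 5 were within 2-fold in synthesis and half-life. Among all genes 7.52% by age and 12.2% by sex were past the threshold in synthesis, and 3.53% and 7.58% in half-life. The median level ratio over the 6 was 0.07 by age and −0.23 by sex.

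Of 15 other early-response genes 11 were listed. None was past the threshold in implied level, against 4.12% of all genes by age and 4.61% by sex. Of the 11, 9 had a lower level in old and 9 in male cells, with medians of −0.21 and −0.25. Among genes of 0.5 to 2 h the share with a lower level was 45.6% by age and 80.5% by sex, so that the count in male cells is close to that share. Their median half-life was 1.13 h in young female, 0.936 h in old female and 0.874 h in young male cells, and 4, 7 and 6 of the 11 were under 1 h, against 5.95%, 8.29% and 5.82% of all genes. These counts include extreme values of 3 genes in old or male cells. BHLHE40, a basic helix-loop-helix repressor, was listed at 0.0593 h in old against 0.813 h in young female cells, and CSRNP1, a cysteine- and serine-rich nuclear protein, at 0.0825 against 0.840 h. NR4A1, an orphan nuclear receptor, was listed at 0.0740 h in male against 2.00 h in young female cells. Their synthesis ratios were 4.01, 3.26 and 3.82, and their level ratios 0.23, −0.08 and −0.93. At half-lives so far below 0.5 h, more than 99.6% of an mRNA would be new after 4 h. These 3 half-lives, and the synthesis ratios that mirror them, are therefore poorly resolved. IER5 was lower in synthesis in male cells (−1.06, or −0.78 after centring).

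Upstream of these genes, all 16 listed kinases and promoter-binding factors were within 2-fold in synthesis and half-life by age. Among all genes 7.52% and 3.53% were past the threshold in these by age, so that few of 16 would be past it at those shares. By sex 2 of the 16 were past the threshold in synthesis, close to the 12.2% of all genes. They were MAPK8 (JNK1), a kinase that phosphorylates JUN (−1.39), and ELK4, an ETS factor that works with SRF (−1.05, or −0.77 after centring). The median half-life of the 16 was 1.88 h in young female cells (age table), against 1.29 h for the members, and 1 of the 16, SRF in old cells (0.927 h), was under 1 h in any group. The MYC network, of which 7 of 10 genes were listed, had a median half-life of 2.57 h in young female cells and 0 genes past the threshold in either comparison. Among all genes the shares past it by age were 7.52% in synthesis, 3.53% in half-life and 4.12% in level. By sex they were 12.2%, 7.58% and 4.61%, so that 0 of 7 is close to such shares. The level ratios of this network ranged from −0.29 to 0.15 by age (median 0.01) and from −0.65 to 0.35 by sex (median 0.01). Those of MYC were −0.19 and −0.76, the latter −0.40 within half-life deciles.

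**Figure D4:**
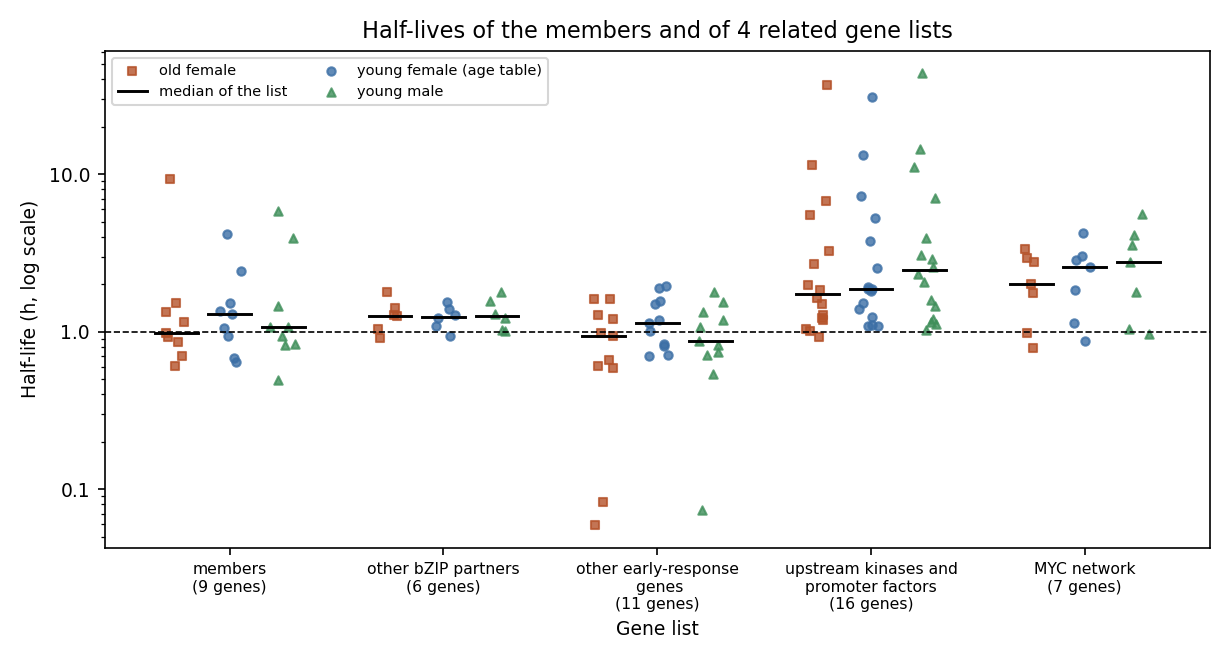
Half-life in hours (log scale) of each listed gene (points, 1 group value each) in old female, young female (age table) and young male cells for the members and 4 related lists, with the median of each list as a bar and 1 h as a dashed line. Members, other zipper partners and other early-response genes have medians between 0.874 and 1.29 h, and the 3 lowest points are BHLHE40 and CSRNP1 in old and NR4A1 in male cells.

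For members past the threshold in synthesis, the genes with the most similar profile were found by distance over 6 log2 values on the listed scales (with no length correction stated for synthesis), the synthesis rate and half-life in old female, young female (age table) and young male cells. MYC was nearest to MSL2 (distance 0.49) and CCNT1 (0.54), JUN to TRAF3IP2 (0.58) and DENND2B (0.59), and FOSL1 to SH3RF1 (0.70) and TRIB2 (0.72). ATF3 was nearest to SPRYD7 (0.78) and SNX16 (0.94). FOSB had no gene within 1 unit among the 10973 others, and its nearest were ADAMTS14 (1.55) and PDZD4 (1.68).

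Other markers also differed between the groups. The summed implied level of 4 listed heat-shock genes was 23000 in old and 33600 in young female cells of the age table, and 32000 in both columns of the sex table. All 4 were lower in old cells. In male cells 3 were lower, while HSPB1, which had the largest level of the 4, was higher (0.29). The level ratios of HSPA6 were −2.97 by age and −4.96 by sex, and those of HSPH1 −0.87 and −1.12. Those of HSPA6 rest on low levels, 319 in old and 76.4 in male cells, against 2500 and 2380 in young female cells. The summed level of 5 markers of fibroblasts or dedifferentiated cells was 116000 in old against 200000 in young female cells. By sex it was 408000 in young male against 191000 in young female cells. Within this sum COL1A1 and COL1A2 differed more, with level ratios of −2.86 by age and 4.19 by sex for COL1A1 and of −1.82 and 3.40 for COL1A2. The part of these differences, and of the higher chondrocyte markers in male cells, in the ratios of the AP-1 and early-response genes was not tested. In such bulk samples, fewer cells with a transcript and less of it per cell cannot be told apart.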

How the data were processed

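Chondrocyte RNA was alkylated with iodoacetamide for 15 min and sequenced from strand-specific poly(A)-selected libraries, per the labels' protocols. The submitters' processing notes list cutadapt 4.5, STAR 2.5.3 and the build EquCab3.0; the kinetic model, gene filter and combination of replicates are not given in the sources used here. The authors' 2 deposited tables give a synthesis rate and a half-life per gene and group, with 0 columns for single samples. Half-lives were read as hours, a unit that the labels and headers do not state. Values stop at 69.3, which is a decay rate of 0.01 per h if the unit is hours. The same ceiling would arise in any unit of time, so it cannot decide the unit. Implied levels sum to between 61095616 and 79885717 per column, so synthesis rates are not on a TPM scale; ranks of levels and distances between genes use this scale as listed. The age table's "Young" column was read as young female from the sample descriptions.

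Log2 ratios were computed within a table with Python 3.11.15 and pandas 2.3.3, without pseudocount or filter, and the code was tested on simulated data. The main design's description by ratio was used because no values per sample were given. All listed members are named; genes of the related lists are named where past an absolute log2 ratio of 1, except SRF. Members and lists were chosen with earlier results of these data known. Decile centring subtracts the median of 10 groups of genes ranked on half-life in the group outside the ratio. One gene planned for the zipper partner list is not reported here and not counted among its 10, and promoter motifs were not analysed here.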

Additional observations from a re-analysis of the deposited data

How the results depend on the processing

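The depth of the samples and the spread between animals are unknown, so none of these ratios can be set against replicate error. No paired analysis was possible because each table gives 1 value per gene and group, and leaving out a replicate was not possible for the same reason. Counts are in the order synthesis rate, half-life and implied level.

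At a threshold of 0.5, 4, 2 and 5 members were past it by age (all genes 23.0%, 13.4% and 15.6%) and 4, 3 and 5 by sex (41.1%, 31.8% and 25%). In the upper 75% of genes by implied level, which leaves out FOSB by age and FOSB and ATF3 by sex, 1, 0 and 1 were past a ratio of 1 by age (4.14%, 1.47% and 2.74%) and 2, 0 and 0 by sex (7.24%, 3.84% and 3.03%). By sex these genes were below the limit through their low male values, so the lower counts say nothing about stability. For synthesis rate by sex 2 were past after centring on the median (all genes 9.87%) and 2 within half-life deciles (8.67%), and for level by sex 2 within deciles (2.7%). Under 0.5 h there were 0 members in old and young female cells of either table and 1 in male cells (all genes 0.702% to 1.61%). Under 2 h there were 8 in old (31.5%), 7 in young female by either table (29.0% and 27.8%) and 7 in male cells (24.1%). In all, 25 alternative counts of members stayed within 1.5 times and 21 moved further. Among those that stayed were the counts by sex for synthesis at 0.5 and for half-life in the upper 75%, the latter with 0 members past in both settings. All 8 counts at the half-life limits of 0.5 and 2 h moved further. The counts for half-lives of 1 to 24 h rest on fewer members, with 2 of 4 past the threshold in synthesis by age (all genes 4.73%) and 3 of 5 by sex (9.33%). Of 54 single ratios, 10 changed sign under some alternative, all of 0.35 or less in size as reported, and 4 crossed the threshold (JUN in synthesis by age and by sex, MYC in synthesis by sex and FOSB in level by sex). No ratio past the threshold was reversed.

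By age the threshold was passed by 831, 390 and 455 of all genes, and by sex by 1367, 853 and 519. A threshold of 0.5 gave 2544, 1476 and 1720 by age against 4619, 3573 and 2810 by sex. The upper 75% held 343, 122 and 227 by age and 611, 324 and 256 by sex. Half-lives restricted to 1 to 24 h left 431 for synthesis and 81 for half-life by age, and 842, 349 and 295 by sex. Decile centring left 516 for half-life and 296 for level by sex.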
